A study of Mus musculus with 4 samples.

Results

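The CXC and CX3C chemokines were followed in primary kidney tubular cells by 10 genes, found by their gene names among the non-control probes of the arrays. All 10 genes were on the array, with 12 of its 39429 probes, and 9 of them were bright enough to be tested among 18390 genes. Several classes were kept apart in the description. They were the platelet types Pf4 and Ppbp, the neutrophil attractants Cxcl1, Cxcl2 and Cxcl5, the interferon-induced Cxcl10, and the homeostatic or membrane-bound Cxcl12, Cxcl14, Cxcl16 and Cx3cl1. The series compared 2 SerpinB2-/- samples with 2 wild type samples, each on its own 1-colour array. Both groups were tubular cells of male mice of the B6.J background, 8 weeks of age, kept in a commercial renal growth medium and exposed to PMA at 100 ng/ml. PMA, a phorbol ester, is used to switch on protein kinase C. Serpinb2 encodes plasminogen activator inhibitor-2, and the deleted stretch of the gene is not given in the sources used here. No sample without PMA belonged to the groups, so the response of the chemokines to PMA itself was not measured.

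CXC chemokines are small secreted proteins that steer leukocytes along concentration gradients through receptors coupled to G proteins. Those with a glutamate-leucine-arginine motif, such as Cxcl1, Cxcl2, Cxcl5 and the processed product of Ppbp, act on the neutrophil receptor Cxcr2, while Cxcl10 acts on Cxcr3 of activated T cells and Cxcl12 on Cxcr4. Cx3cl1 and Cxcl16 are made as membrane proteins with a mucin stalk, hold cells that carry Cx3cr1 or Cxcr6, and are released by sheddases such as Adam10 and Adam17. Injured kidney tubules are a known source of neutrophil and T cell attractants.

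Signal is given in scaled units. The spots of a probe were averaged on the log2 scale and each array was scaled so that its 75th percentile was 2003 units. The lowest signal well above background lay between 23.0 and 24.8 units on the 4 arrays. Each array had 23404 to 24471 probes marked well above background, and 0 spots were saturated. Serpinb2 itself was at 5.47 and 7.39 units in SerpinB2-/- cells, not well above background, against 3207 and 3276 units in wild type, at least 140-fold lower. The median gene differed by 0.08 on the log2 scale between the 2 SerpinB2-/- arrays and by 0.08 between the 2 wild type arrays. Of 13 genes of kidney tubular epithelium 12 were measured, among them Krt8, Krt18, Cdh16 and Epcam. Umod, of the loop of Henle, was not well above background, and the proximal tubule transporter Slc34a1 was at 42.3 and 47.5 units in SerpinB2-/- and 48.9 and 35.2 units in wild type cells. The labels do not say that samples came from separate cultures or animals, so p-values measure only the spread between these samples. In a design of this size an exact two-sided permutation test of a single gene cannot give a p under 0.333.

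The windows upstream of the genes of the chromosome 5 cluster are shown because it holds genes that fell beside genes that did not pass the threshold. Windows were available for 8 of the 10 genes. Each holds the 250 bases before the RefSeq transcript start (GRCm38.p6), written 5′ to 3′ on the strand of the gene, with matches to any of 4 motifs in capitals. The motifs, searched on both strands, were GGG and TTCC with any 3 bases between them for NF-kB, GAAA and GAAA with any 2 bases between them for the interferon-stimulated response element (ISRE), TGANTCA for AP-1 and AGATAA for GATA factors. No base fell in matches of 2 different motifs, while matches to the NF-kB letters overlapped each other. Pf4 lies at chr5:90772185-90772434, Ppbp at chr5:90768268-90768517, Cxcl1 at chr5:90890995-90891244 and Cxcl2 at chr5:90903649-90903898, all on the plus strand, and Cxcl10 at chr5:92348890-92349139 on the minus strand.
Pf4: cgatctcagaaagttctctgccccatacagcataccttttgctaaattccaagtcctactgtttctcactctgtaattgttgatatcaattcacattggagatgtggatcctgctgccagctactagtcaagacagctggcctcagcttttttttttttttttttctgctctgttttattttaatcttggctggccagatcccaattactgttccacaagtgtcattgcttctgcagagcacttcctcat
Ppbp: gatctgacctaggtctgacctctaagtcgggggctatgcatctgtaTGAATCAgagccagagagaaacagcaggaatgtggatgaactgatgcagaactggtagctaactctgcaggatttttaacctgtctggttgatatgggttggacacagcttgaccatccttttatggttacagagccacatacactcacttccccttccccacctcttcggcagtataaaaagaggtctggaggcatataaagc
Cxcl1: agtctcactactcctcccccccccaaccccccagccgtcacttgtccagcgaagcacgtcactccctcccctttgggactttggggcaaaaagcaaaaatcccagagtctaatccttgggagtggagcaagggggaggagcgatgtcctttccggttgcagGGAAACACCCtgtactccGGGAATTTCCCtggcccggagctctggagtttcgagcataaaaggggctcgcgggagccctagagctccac
Cxcl2: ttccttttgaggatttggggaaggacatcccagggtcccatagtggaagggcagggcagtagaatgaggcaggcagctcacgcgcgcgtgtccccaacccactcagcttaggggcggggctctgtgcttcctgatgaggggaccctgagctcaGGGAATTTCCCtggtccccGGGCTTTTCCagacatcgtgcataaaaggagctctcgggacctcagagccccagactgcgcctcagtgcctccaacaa
Cxcl10: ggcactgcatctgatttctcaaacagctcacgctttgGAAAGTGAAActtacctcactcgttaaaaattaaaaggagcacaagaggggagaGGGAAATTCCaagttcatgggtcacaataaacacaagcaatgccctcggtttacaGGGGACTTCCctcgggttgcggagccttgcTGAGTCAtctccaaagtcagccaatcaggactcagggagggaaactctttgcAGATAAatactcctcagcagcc

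Cxcl1 and Cxcl2 shared a run of 14 bases, GGGAATTTCCCTGG, that holds NF-kB letters on both strands, and each window had 3 matches to those letters. Cxcl10 had 2 NF-kB matches, 1 ISRE match, 1 AP-1 match and 1 GATA match. Ppbp had 1 AP-1 match and the Pf4 window held none of the 4 motifs. Of the windows that are not printed, Cxcl14 had 1 ISRE match, and Cxcl12 and Cx3cl1 had no match. Among all 32851 windows of the same length, 4.65% held the NF-kB letters, 2.98% the ISRE letters, 6.75% the AP-1 letters and 9.99% the GATA letters. A match describes letters only and does not show that a factor binds.

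**Figure D1:**
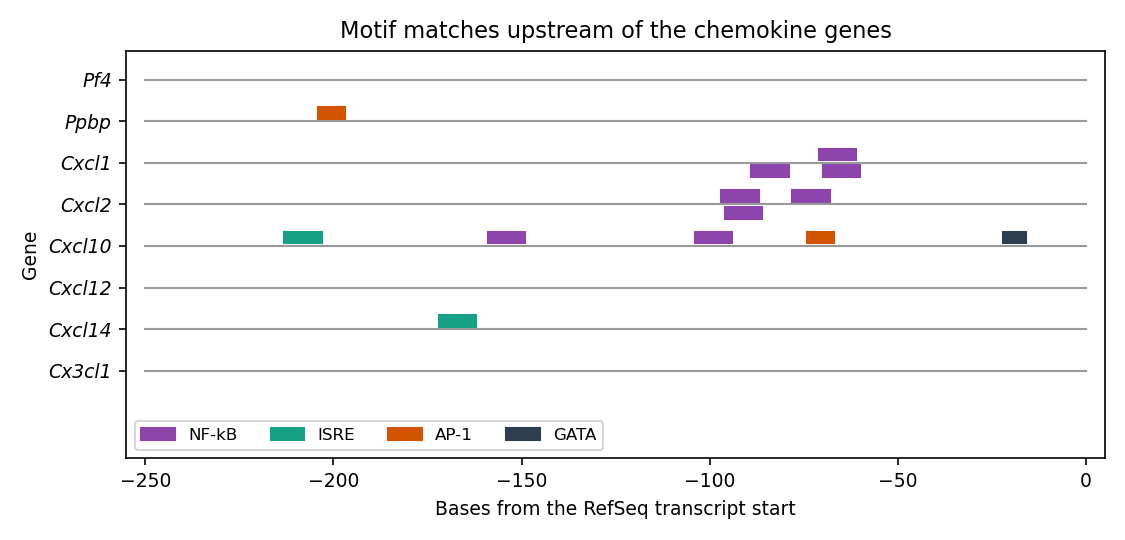
Motif matches in the 250 bases upstream of 8 chemokine genes, with the distance from the RefSeq transcript start in bases on the horizontal axis and 1 line per gene. Boxes above a line are matches on the strand of the gene and boxes below it on the other strand; NF-kB letters stand in Cxcl1, Cxcl2 and Cxcl10.

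In SerpinB2-/- cells 5 of the 9 tested chemokines fell and 0 rose. The genes that fell were Pf4, Ppbp, Cxcl12, Cxcl14 and Cxcl16. Cxcl1, Cxcl2, Cxcl10 and Cx3cl1 did not pass the threshold, an adjusted p of 0.05 by limma with Benjamini-Hochberg adjustment over all genes tested. Across all genes 15.7% passed in either direction, with 9.67% lower and 6.01% higher in SerpinB2-/- cells. The median log2 change of the 9 tested chemokines was -0.41, against 0.0060 over all genes. At an unadjusted p of 0.05, 5 chemokines were again lower and 0 higher, where 3429 of all 18390 genes were lower and 2860 higher. Unadjusted counts of the gene lists given later are to be read against these. The SerpinB2-/- and wild type arrays did not overlap, with SerpinB2-/- lower, for the 5 genes that fell and for Cxcl10, 6 of 9. Over all genes 64.3% did not overlap in either direction and 31.9% did not overlap with SerpinB2-/- lower.

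**Figure D2:**
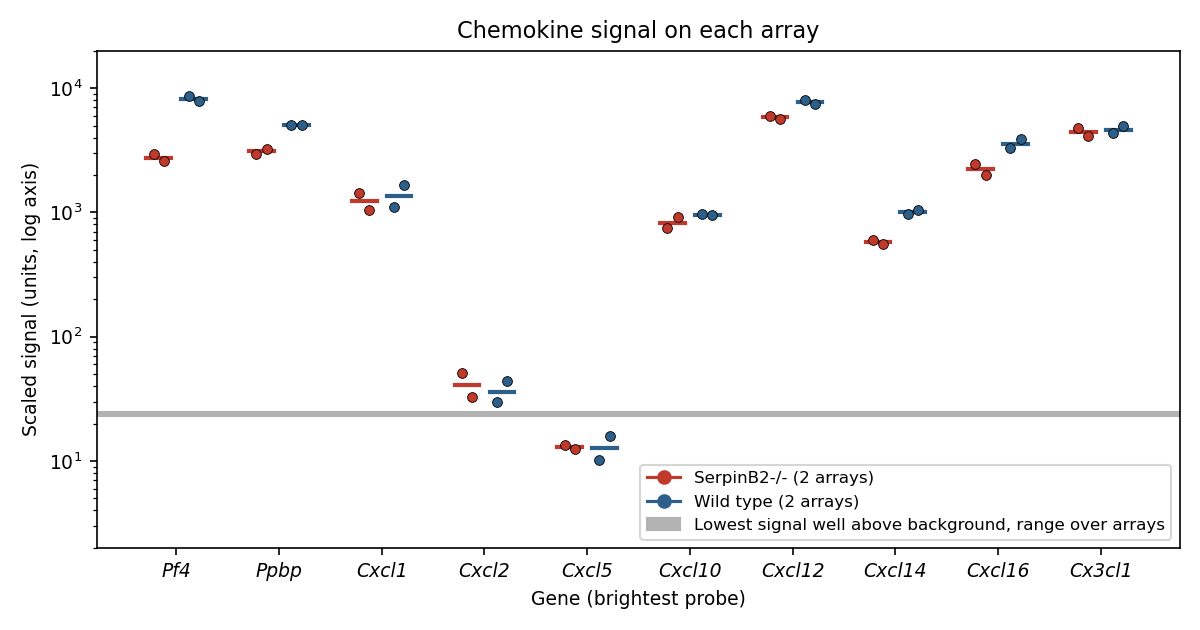
Scaled signal of the 10 chemokines on each array, on a log axis, with SerpinB2-/- (2 arrays) left of wild type (2 arrays) for each gene at its brightest probe. Points are arrays and bars are means of the log values; Pf4 lies between 2581 and 2927 units in SerpinB2-/- and between 7816 and 8659 in wild type, and Cxcl5 lies under the grey band of the lowest signals well above background.

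The largest difference among the chemokines was in Pf4, platelet factor 4, a chemokine that platelets store in their granules and that mouse macrophages also make. Its probe (chr5:91202275-91202334, mm9) gave 2927 and 2581 units in SerpinB2-/- cells, against 8659 and 7816 units in wild type. Both SerpinB2-/- arrays lay under both wild type arrays. Pf4 fell 2.99-fold, a log2 change of -1.58 ± 0.09 (SE, n = 2 per group, adjusted p = 0.00704). The spread between the 4 spots of the probe was 1.34% to 3.40% on each array. Leaving out each array in turn gave log2 changes of -1.67 to -1.49, each past the threshold (adjusted p = 0.0108 to 0.0432). In every fit that leaves out an array, here and below, the lone sample of its genotype is assumed to vary like the other genotype's pair, so these fits are a weak check.

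Ppbp, the precursor of the neutrophil-activating peptide NAP-2 and of other platelet granule peptides, lies beside Pf4, with its probe at chr5:91198970-91199029 (mm9). It gave 2979 and 3262 units in SerpinB2-/- cells and 5027 and 5017 units in wild type. The groups did not overlap, and the wild type arrays were almost equal. Ppbp fell 1.61-fold (log2 change -0.69 ± 0.07, adjusted p = 0.00950). It no longer passed when wild type replicate 1 (adjusted p = 0.0541) or wild type replicate 2 (0.0501) was left out, although its change stayed at -0.69. Both platelet-type genes were at 2581 units or more in every sample.

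Other genes of platelets and megakaryocytes were near or under the background. Of 12 such genes 8 were not well above background in either group, among them the integrin chain Itga2b, the von Willebrand receptor chain Gp1ba, Gp9, and the transcription factors Gata1 and Nfe2. The 4 measured ones included Gp1bb and Clec1b, and the summed signal of the 4 was 273 and 320 units in SerpinB2-/- cells and 284 and 274 units in wild type. Treml1, a receptor of platelet granules, was at 31.4 and 32.7 units in SerpinB2-/- cells and 38.3 and 38.1 units in wild type. It had a log2 change of -0.25 (adjusted p = 0.0490), but it entered the fit only through its wild type spots, so this p carries little weight. The other 3 did not pass.

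Macrophage and monocyte genes were lower in the same samples as Pf4. Of 15 measured ones 10 fell and 0 rose (10 and 0 at an unadjusted p of 0.05), with a median log2 change of -0.56. Their summed signal was 28206 and 26547 units in SerpinB2-/- cells and 36966 and 33758 units in wild type. Aif1, an actin-binding protein of macrophages, fell by 0.79 ± 0.08 (log2, adjusted p = 0.0104), the complement chain C1qa by 0.76 ± 0.08, and Adgre1, the F4/80 antigen, by 0.71 ± 0.12. The changes of Cd14 (-0.034 ± 0.060) and Itgam (-0.090 ± 0.074) did not pass, and Cd163 was not well above background. Of 9 measured endothelial genes 8 fell and 0 rose, with a median of -1.08. Their summed signal was 8827 and 11080 units in SerpinB2-/- and 15519 and 14972 units in wild type. Kdr, the measured gene that did not fall, had a log2 change of 0.046 ± 0.110 (adjusted p = 0.800). It made a large part of the sum, with 4441 and 5062 units in SerpinB2-/- and 4979 and 4237 units in wild type. Among those that fell, Tie1 was at 17.8 and 29.9 units in SerpinB2-/- and 77.7 and 72.7 units in wild type. Tie1 entered the fit only through wild type, the group where it was higher, so its call carries little weight. Tek was not well above background. Of 5 measured neutrophil genes 2 fell, Ly6g by 1.28 ± 0.09 (log2, adjusted p = 0.00706) and the peptide Camp by 0.26 ± 0.06, and S100a9, Mpo, Ngp, Retnlg and Cxcr2 were not well above background. Most of the neutrophil sum was the receptor gene Csf3r (log2 change 0.0050), and the whole sum came to 35422 and 33896 units in SerpinB2-/- and 33072 and 37682 units in wild type. The part of these cell types in the change of Pf4 was not tested, and in bulk RNA fewer cells of a type and less RNA per cell cannot be told apart.

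**Figure D3:**
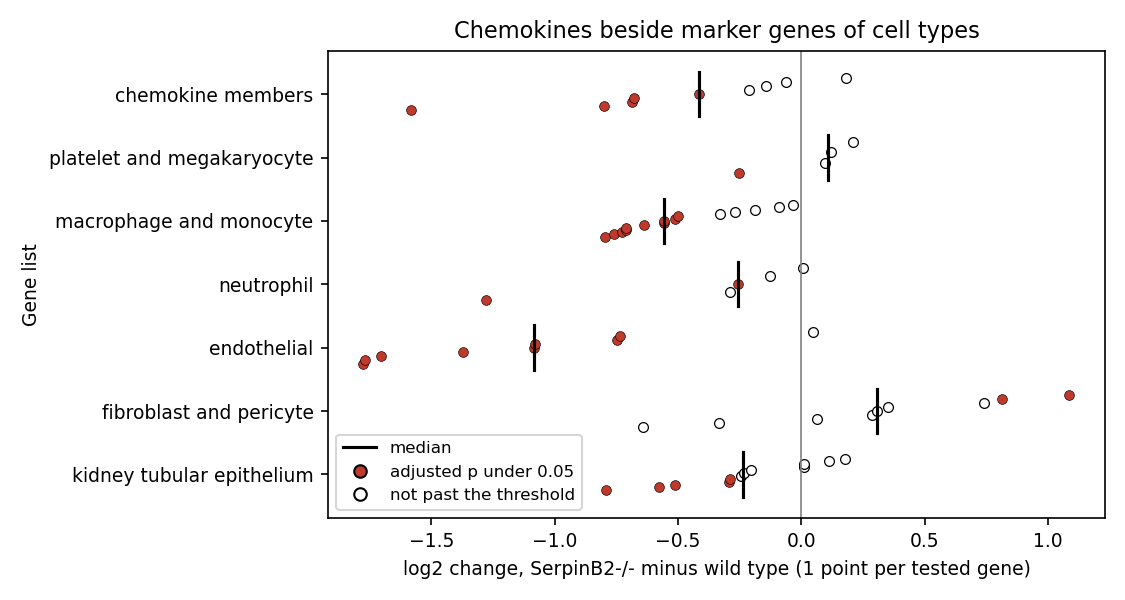
log2 change, SerpinB2-/- minus wild type, of the 9 tested chemokines beside the tested marker genes of 6 cell types, 1 point per gene. Filled points passed the threshold and vertical bars are medians, at -0.41 for chemokines, -0.56 for macrophage and monocyte genes, -1.08 for endothelial genes and 0.31 for fibroblast and pericyte genes.

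None of the neutrophil attractants passed the threshold. Cxcl1, the keratinocyte-derived chemokine KC and a main neutrophil attractant in mice, gave 1444 and 1043 units in SerpinB2-/- cells and 1113 and 1649 units in wild type (probe at chr5:91321845-91321904, mm9). The groups overlapped, and each held a high and a low array. The log2 change was -0.14 ± 0.24 (adjusted p = 0.713), with a 95% interval from -0.77 to 0.49. Its replicates differed by 0.47 and 0.57 on the log2 scale within SerpinB2-/- and wild type, while the spots of the probe spread by 1.91% to 6.37% on each array.

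Cxcl2, macrophage inflammatory protein 2, was close to the background at 50.7 and 33.0 units in SerpinB2-/- cells and 29.9 and 43.6 units in wild type (chr5:91334534-91334593, mm9). More than 0.5 of its spots were marked well above background on 1 SerpinB2-/- array and on both wild type arrays. Its log2 change of 0.18 ± 0.27 had an adjusted p of 0.674 and a 95% interval from -0.52 to 0.88. Cxcl5, an attractant that epithelia and platelets make, was not well above background on any array, with 13.5 and 12.6 units in SerpinB2-/- cells and 10.2 and 15.7 units in wild type, and was not tested. Cxcl3, a further gene of this kind in the cluster, was at 34.1 and 61.9 units in wild type. In SerpinB2-/- cells it was not well above background (21.2 and 20.2 units). It was at least 1.98-fold lower and did not pass (adjusted p = 0.0584), and it entered the fit only through wild type, the group where it was higher.

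Cxcl1 and Cxcl2 had the same order of arrays, with SerpinB2-/- replicate 1 above replicate 2 and wild type replicate 2 above replicate 1. This order, looked for after the values were seen, was also that of Cxcl14, Cxcl16 and Cx3cl1, 3 of the other 7 tested chemokines. It held for 8 of 16 regulators of the NF-kB and interleukin-17 pathways, among them Relb, Nfkb2, Nfkbia and Nfkbiz, and for 29.5% of all genes tested. Between the genotypes 0 of these 16 regulators passed the threshold, with a median of -0.062. At an unadjusted p of 0.05, 2 were lower and 1 was higher. Nfkbiz, a cofactor of NF-kB at a subset of its targets, differed by -0.31 ± 0.09 (adjusted p = 0.0810), and Traf3ip2, the adaptor of the interleukin-17 receptor, by -0.28 ± 0.07 (adjusted p = 0.0549). In a fit of each probe by itself, where 16% of 24172 probes passed, a dimmer probe of Nfkb1 passed (-0.39 ± 0.06, adjusted p = 0.0234), while its brightest was at 0.051.

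The probes of the platelet types and of the neutrophil attractants lie within 144 kb of each other on chromosome 5. From the Cxcl5 probe, that of Ppbp is 8.48 kb away, Pf4 11.8 kb, Cxcl3 26.2 kb, Cxcl15 41.5 kb, Cxcl1 131 kb and Cxcl2 144 kb. Within this stretch Pf4 and Ppbp had log2 changes of -1.58 and -0.69 and Cxcl1 and Cxcl2 of -0.14 and 0.18. Cxcl15, a lung chemokine, was not well above background on any array. The difference in change between these genes was not tested.

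Cxcl10, which interferon induces and which attracts T cells through Cxcr3, gave 748 and 916 units in SerpinB2-/- cells and 964 and 952 units in wild type (chr5:92775781-92775840, mm9). The SerpinB2-/- arrays lay under the wild type arrays, 1 of them narrowly. The log2 change was -0.21 ± 0.11 (adjusted p = 0.244, 95% interval -0.49 to 0.07). A second Cxcl10 probe, for another transcript at chr5:92776616-92776675, was not well above background on any array. Cxcl9, a related ligand of Cxcr3, was not well above background at either of its 2 probes. Cxcl11, the remaining one, was at 186869 and 198144 units in SerpinB2-/- and 206694 and 199440 units in wild type at its brightest probe (log2 change -0.077 ± 0.063, adjusted p = 0.436). A further Cxcl11 probe was at 4279 and 3921 units in SerpinB2-/- and 3867 and 4352 units in wild type, with a log2 change of -0.0022 (adjusted p = 0.989 over probes). The probes of Cxcl11 thus disagree widely in signal, and the level of the gene is in doubt.

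Of 22 genes of the interferon pathway, 18 were measured, 4 fell and 0 rose, with a median of -0.077. At an unadjusted p of 0.05, 6 were lower and 1 was higher. Ifit3, an antiviral protein, fell by 0.76 ± 0.12 (log2, adjusted p = 0.0206), the oligoadenylate synthetase-like Oasl1 by 0.70 ± 0.10 (adjusted p = 0.0197), the GTPase Gbp3 by 0.62 ± 0.13 (adjusted p = 0.0387) and the myeloid factor Irf8 by 0.49 ± 0.09 (adjusted p = 0.0285). Irf1, a direct target of interferon gamma signalling, did not pass (-0.15 ± 0.07, adjusted p = 0.214). Among other targets, Gbp2 (-0.24) and Gbp5 (-0.071) were lower and Isg15 (0.17), Ifit2 (0.098) and Socs1 (0.29) were higher, none past the threshold. Irf7, Ifit1 and Rsad2 were among those not well above background. Macrophage genes were lower in the same samples, as given above, and their part in these changes was not tested.

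**Figure D4:**
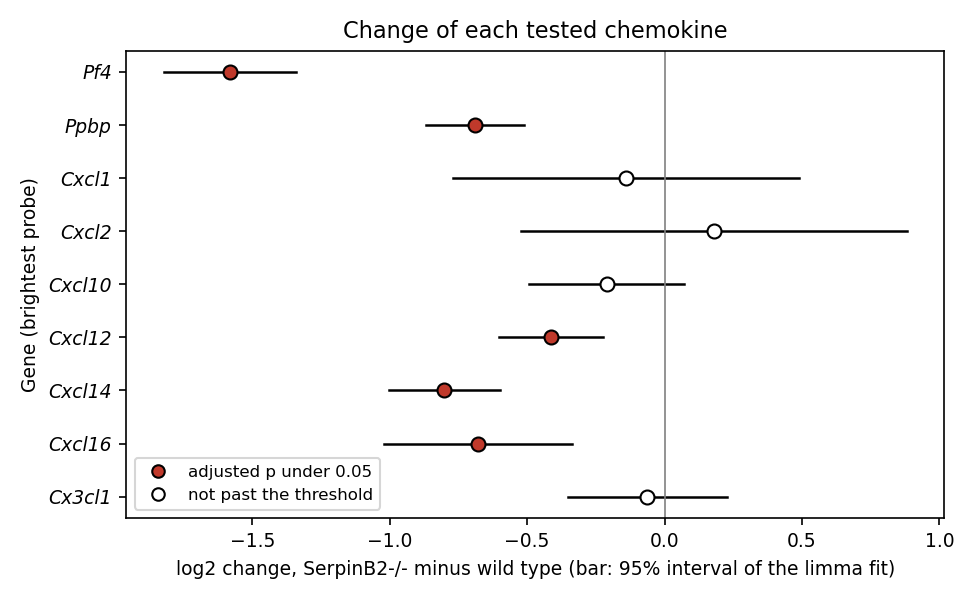
log2 change of the 9 tested chemokines, SerpinB2-/- minus wild type, with the 95% interval of the limma fit. Filled points passed the threshold; Pf4 is at -1.58, Cxcl14 at -0.80, Ppbp at -0.69, Cxcl16 at -0.68 and Cxcl12 at -0.41, and the intervals of Cxcl1, Cxcl2, Cxcl10 and Cx3cl1 include 0.

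Of the homeostatic and membrane-bound chemokines, 3 of 4 fell. Cxcl14, a chemokine of epithelia that is present without inflammation, gave 601 and 556 units in SerpinB2-/- cells and 964 and 1054 units in wild type (chr13:56390078-56390137, mm9). The groups were well apart. Cxcl14 fell 1.74-fold (log2 change -0.80 ± 0.08, adjusted p = 0.00906). Without each array in turn the change was -0.87 to -0.74 and passed each time (adjusted p = 0.0219 to 0.0462). Of 12 measured genes of tubular epithelium 5 fell (among them Cdh16, Cdh1, Epcam and Krt8), 0 rose and 7 did not pass. Those that did not pass included Pax8 (0.18) and the proximal tubule genes Slc34a1 (0.11), Cubn (0.012) and Lrp2 (0.010). The summed signal of all 12 measured genes was 450592 and 473325 units in SerpinB2-/- and 568402 and 568920 units in wild type. Most of this sum came from Krt8 and from Krt18, which did not pass (-0.23). The part of the 12 genes in the change of Cxcl14 was not tested.

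Cxcl16, the membrane-bound ligand of Cxcr6 and a scavenger receptor for oxidised lipoproteins, gave 2456 and 2019 units in SerpinB2-/- cells and 3272 and 3883 units in wild type (chr11:70267780-70267839, mm9). All SerpinB2-/- values were under all wild type values, with a wider spread than for Cxcl14. The fall was 1.60-fold (log2 change -0.68 ± 0.13, adjusted p = 0.0352). It passed in 1 of the 4 fits that left out an array, with values of -0.82 to -0.54. The fits that did not pass left out SerpinB2-/- replicate 2 (adjusted p = 0.0861), wild type replicate 1 (0.0739) or wild type replicate 2 (0.118).

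Cx3cl1, fractalkine, the membrane-bound ligand of Cx3cr1 on monocytes and kidney dendritic cells, gave 4817 and 4102 units in SerpinB2-/- cells and 4339 and 4967 units in wild type (chr8:97306185-97306244, mm9). The groups overlapped. The log2 change was -0.063 ± 0.112 (adjusted p = 0.725), with a 95% interval from -0.35 to 0.23.

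Cxcl12, stromal cell-derived factor 1, which holds progenitors and lymphocytes through Cxcr4, was measured by 2 probes with different values. The brighter one, for transcript NM_001012477 at chr6:117131227-117131286 (mm9), gave 6008 and 5612 units in SerpinB2-/- cells and 8034 and 7441 units in wild type. At this probe the groups did not overlap and Cxcl12 fell 1.33-fold (log2 change -0.41 ± 0.07, adjusted p = 0.0277). The other, for transcript NM_021704 at chr6:117125026-117125085, gave 1940 and 1770 units in SerpinB2-/- cells and 2162 and 1795 units in wild type, where the groups overlapped. Its log2 change was -0.088 ± 0.110 (adjusted p = 0.607 over probes). The log2 ratio of the first probe to the second was 1.63 and 1.66 in SerpinB2-/- and 1.89 and 2.05 in wild type, a difference of -0.32. An exact two-sided permutation test gave this difference p = 0.333, the smallest the design allows. With the mean of both probes Cxcl12 was at -0.25 and no longer passed (adjusted p = 0.124), nor did it without any of the 4 arrays (adjusted p = 0.0610 to 0.120).

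Most receptors of these chemokines were not well above background. Of 9 receptors 6 were not measured, namely Cxcr1, Cxcr2, Cxcr3, Cxcr4, Cxcr5 and the scavenger Ackr1. None of the other 3 passed the threshold at its brightest probe, with 1 lower and 1 higher at an unadjusted p of 0.05. Cxcr6 was at 124 and 166 units in SerpinB2-/- cells and 98.2 and 101 units in wild type (log2 change 0.53 ± 0.15, adjusted p = 0.0760). Cx3cr1 was at 399 and 383 units in SerpinB2-/- cells and 613 and 458 units in wild type (-0.44 ± 0.15, adjusted p = 0.112). By probe, a dimmer probe of Cxcr6 (0.66, adjusted p = 0.0439) and of Cx3cr1 (-0.55, adjusted p = 0.0480) passed narrowly. Ackr3, which takes up Cxcl12, differed by -0.13 ± 0.10 (adjusted p = 0.428). Of the other CXC ligands, Cxcl9, Cxcl13, Cxcl15 and Cxcl17 were not well above background.

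Of 9 enzymes that cut chemokines, 7 were measured, 1 rose and 1 fell, with a median of -0.45. Mmp8 (-0.75, adjusted p = 0.0511), Mmp9 (-0.56, adjusted p = 0.0877) and Mmp12 (-0.45, adjusted p = 0.326) were lower and did not pass. The sheddases of Cx3cl1 and Cxcl16 did not pass, with Adam10 at 0.17 ± 0.07 (adjusted p = 0.167) and Adam17 at -0.095 ± 0.116 (adjusted p = 0.600). Mmp2, which can inactivate Cxcl12, rose by 0.59 ± 0.08 (log2, adjusted p = 0.0180), with 3662 and 3799 units in SerpinB2-/- cells and 2647 and 2324 units in wild type. Of 9 measured fibroblast and pericyte genes 2 rose (Col3a1 and Postn) and 0 fell, with a median of 0.31. Thy1 (-0.64) and Dcn (-0.33) were lower and did not pass. The summed signal of the 9 genes was 361497 and 420973 units in SerpinB2-/- and 345637 and 279966 units in wild type. Most of this sum came from Acta2, Col1a1 and Col1a2, which did not pass. The part of the 9 genes in the rise of Mmp2 was not tested. Cpn1, the catalytic chain of carboxypeptidase N, fell by 1.16 ± 0.06 (adjusted p = 0.00704), with 119 and 120 units in SerpinB2-/- cells and 271 and 264 units in wild type.

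For each chemokine that fell, the genes with the nearest pattern over the 4 arrays were sought. Genes with predicted or clone-like symbols were left out of this search. Nearness was the root mean square difference of the log2 values, each gene centred on its own mean. For Pf4 the nearest genes were Brinp3 (0.045), the ectonucleotidase Entpd1 (0.093) and the peptide hormone Cck (0.094). For Ppbp they were Gstt1 (0.015), Epha7 (0.016) and Casz1 (0.019), and for Cxcl14 Lgals3bp (0.017), Ptpn7 (0.022) and Phf11d (0.026). For Cxcl12 they were Tnfaip8 (0.012), Mvp (0.013) and Zfp651 (0.014), and for Cxcl16 Ucma (0.027), Tmem179 (0.027) and Inha (0.028). The log2 changes of the genes nearest to Pf4 were -1.53, -1.40 and -1.55. Since these genes were picked for their likeness to Pf4, changes close to its own follow from the choice.

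**Figure D5:**
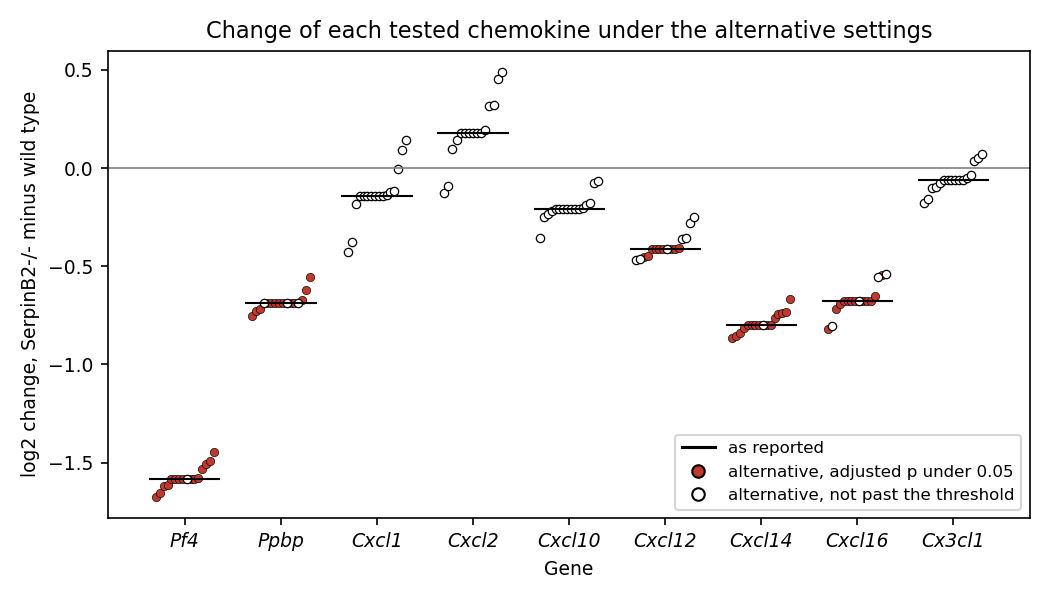
log2 change of each tested chemokine, SerpinB2-/- minus wild type, under the alternative ways of processing, 1 point per alternative, with a line at the reported value. Filled points passed the threshold; Pf4 stays between -1.67 and -1.45 and Cxcl14 between -0.87 and -0.67, while Cxcl1, Cxcl2 and Cx3cl1 have values on both sides of 0.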

How the data were processed

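The authors deposited a scanner file for each array. Its processed intensity values come from Agilent Feature Extraction (10.7.3.1), with spatial and multiplicative detrending and surrogates for dim spots switched on, per the file headers; 150 ng of total RNA was labelled with Cy3, per the labels. The 4 arrays shared a slide and a scan time. Wild type arrays held positions 1 and 2 and SerpinB2-/- arrays 3 and 4, so position and genotype cannot be told apart. The scaling of the authors' deposited value table, an intensity on a linear scale, is not stated; it served as an alternative. No untreated cells were analysed here.

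Control spots and spots marked as outliers were left out, and the 4 spots of a probe were averaged as log2 values. The 75th percentile of each array was subtracted. Probes entered the fit when a share over 0.5 of their spots passed the scanner's well-above-background test on both arrays of a genotype. The brightest of a gene's remaining probes was used. limma 3.58.1 in R 4.3.3 compared SerpinB2-/- with wild type (lmFit, eBayes), with Benjamini-Hochberg adjustment over 18390 genes and a threshold of 0.05. The fit was tested on simulated data. Positions of probes are those of the files (mm9), and symbols and upstream sequences are RefSeq's (GRCm38.p6), with no coordinate moved between builds. Of the probe names, 28328 were matched by accession and 243 by an older symbol. Members, companion lists, markers and the rule for named genes (all members, listed genes past the threshold, every measured ligand and receptor, the 3 nearest genes) were chosen with earlier results of these data known. A bound ("at least N-fold") sets the bright group's mean against the higher of the dim probe's signal and the lowest signal well above background on each array. The alternatives were normexp (offset 50), 3 other scalings, the authors' table, 2 other filters, 2 other ways to join probes, a trended robust fit, the replicate number as a block, outlier spots kept and each array left out. Some genes of the lists are not reported here by name.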

Additional observations from a re-analysis of the deposited data

How the results depend on the processing

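Of 16 alternatives, 12 left 4 or 5 chemokines past the threshold, all lower in SerpinB2-/- cells. With dim probes kept, 0 of 10 chemokines passed by limma (5 lower and 0 higher at an unadjusted p of 0.05), as did 0 companion genes and 3 of all 29875 genes, where 2884 of 18390 passed as reported. Pf4 then had an adjusted p of 0.0609. Leaving out 1 array gave 2 to 4 chemokines, 3 to 10 companion genes (6 as reported) and 504 to 1410 of all genes. The count was 2 when either wild type array was left out and 3 when SerpinB2-/- replicate 2 was. Without an array, Cxcl1 ranged from -0.43 to 0.14, Cxcl2 from -0.13 to 0.49 and Cx3cl1 from -0.18 to 0.053, so their signs were not stable. Under median scaling all genes had a median of 0.14, and 5583 passed (1245 lower and 4338 higher, against 1779 and 1105), with 13 companion genes past the threshold. Cx3cl1 turned to 0.072, and Cxcl12 no longer passed (-0.28, adjusted p = 0.0578). A trended robust fit called 10 companion genes. Whether the shared replicate numbers mark pairs could not be decided. The deviations of the numbers correlated at 0.26 across genes, but over 2 pairs only this can neither show nor exclude pairing. With the replicate block 5 chemokines, 9 companion genes and 2142 of all genes passed. The causes of these shifts were not tested. Cxcl5, Cxcl2 and most receptors are limited by their signal over background.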
